A study of Mus musculus with 3 samples.

Results

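The respiratory chain subunits were examined as a set of 93 genes in single-cell RNA sequencing of injured mouse tibialis anterior muscle. Members were taken by symbol from the 32285 features of the count tables, as the genes named Nduf (a, b, c, s or v with a number), Sdh, Uqcr, Cox4 to Cox8 or Atp5, and as the protein-coding genes of the mitochondrial genome. By the form of their symbols, 80 are nuclear genes (36 of complex I, 4 of complex II, 8 of complex III, 15 of complex IV and 17 of complex V) and 13 lie in the mitochondrial genome (7 of complex I, 1 of complex III, 3 of complex IV and 2 of complex V). Ndufa4 is counted in complex I by its symbol throughout, although its protein is a subunit of complex IV. A minimum of 50 unique molecular identifiers (UMIs, counts of single captured transcripts) over the 3 libraries was met by 91 members, that is, by 78 nuclear members and all 13 of the mitochondrial genome. The nuclear members are spread over 19 chromosomes. The rule does not take in Cox4i1, Cox4i2, Cox7a2l, Ndufab1, Ndufa4l2, Cyc1 or Cycs, whose symbols have another form. Some of these subunits have near-identical copies or pseudogenes in the genome, so reads may be split between copies, and capture of the 3′ end differs from gene to gene, so levels are compared between libraries, and shares of one gene among related genes are read only across classes and libraries.

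There were 3 groups, each with 1 library taken 4 days after injury with barium chloride. Young PBS mice and old PBS mice received vehicle, and old rMETRNL mice received recombinant meteorin-like protein (METRNL, a secreted factor) by intramuscular injection from the day of injury. The mice were of a wild-type C57/BL6J background, aged 3 to 4 months (young) or 24 to 26 months (old) by the general methods of the study, and no young group received rMETRNL. Each library pooled triplicate muscles, so the spread between mice cannot be estimated and groups could not be tested against each other. Intervals given here cover counting error only (95%, exact), except those of a median log2 ratio. The latter are order-statistic intervals of the median over member genes. They take the genes as independent and do not give the range of single members. The age comparison divides old PBS by young PBS, and for treatment old rMETRNL is divided by old PBS. Both use the old PBS library, so a value peculiar to that library moves them in opposite directions.

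The respiratory chain passes electrons from NADH (complex I) and succinate (complex II) through complexes III and IV to oxygen, and the proton gradient built on the way drives ATP synthesis by complex V. Complexes I, III, IV and V are assembled from subunits of both genomes, so that nuclear and mitochondrial transcripts must be brought together, whereas all subunits of complex II are nuclear. Skeletal muscle is rich in these complexes and carries its own forms of several complex IV subunits.

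Between 9941 and 11363 cells per library were kept, with a median of 13678 to 15092 UMIs per cell. Classes were named from marker genes after clustering without the members, so that the members did not define the classes. Naming a cluster required that markers of its class were detected, so their presence is no test of the name. In FAP-like cells (fibro/adipogenic progenitors, the stromal cells of muscle) FAP markers summed to 41711, 45387 and 40599 CPM (UMIs per 1e6 UMIs of the class, in young PBS, old PBS and old rMETRNL, an order kept throughout), and in macrophage/monocyte-like cells their own markers summed to between 24806 and 27505 CPM. Kept barcodes shared between 2 libraries numbered 24 to 33. Classes differed in size between libraries. Muscle fibre-like barcodes differed most, as they numbered 34 (young PBS), 432 (old PBS) and 128 (old rMETRNL), with medians of 3012.5, 2082 and 2246.5 UMIs. Myocyte-like cells numbered 463, 215 and 433, dendritic-like cells 612, 372 and 638 and glial-like cells 16, 67 and 44. Muscle fibre markers were also highest in old PBS inside both of the largest classes, at 22.7, 135 and 49.98 CPM in FAP-like cells and 79.4, 178 and 100.2 CPM in macrophage/monocyte-like cells. The macrophage/monocyte markers (497, 714 and 603 CPM) and myocyte markers (17.3, 45.4 and 12.9 CPM) of FAP-like cells were highest in old PBS as well. The erythroid markers (271, 28.9 and 106 CPM), B cell markers (159, 93.99 and 122 CPM) and mast cell/basophil markers (25.9, 5.35 and 13.1 CPM) of macrophage/monocyte-like cells were lowest in old PBS, as the nuclear members were (below). The part of such RNA in the levels of the members was not tested.

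Promoter sequences from RefSeq (GRCm38.p6) are given for members whose levels are described below, in order to show promoters with and without a match to motifs of known regulators. They cover 180 bases before the transcription start, 5′ to 3′ on the strand of the gene, and capitals mark a match to the core of the NRF1 motif (GCGCATGC) or of the ETS motif (CCGGAAG) on either strand. NRF1 and ETS factors such as GABP are known regulators of nuclear respiratory genes. Sdhb (iron-sulfur subunit of complex II) is shown at chr4:140961091-140961270, plus strand, and Sdhd (a membrane anchor of complex II) at chr9:50603850-50604029, minus strand. Cox6a1, the broadly used form of a complex IV subunit, is shown at chr5:115348959-115349138, minus strand, and Cox8b, a muscle form, at chr7:140900447-140900626, minus strand.
Sdhb: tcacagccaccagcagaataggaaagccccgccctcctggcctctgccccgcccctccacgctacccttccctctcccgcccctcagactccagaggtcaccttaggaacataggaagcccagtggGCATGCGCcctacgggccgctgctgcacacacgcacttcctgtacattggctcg
Sdhd: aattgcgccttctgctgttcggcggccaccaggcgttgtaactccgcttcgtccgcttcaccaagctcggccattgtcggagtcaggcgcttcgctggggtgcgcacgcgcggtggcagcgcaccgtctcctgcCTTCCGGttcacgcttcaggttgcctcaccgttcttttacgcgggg
Cox6a1: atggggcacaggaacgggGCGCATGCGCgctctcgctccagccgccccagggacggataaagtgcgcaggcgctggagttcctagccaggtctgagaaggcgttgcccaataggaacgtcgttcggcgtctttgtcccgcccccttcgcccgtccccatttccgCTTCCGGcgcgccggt
Cox8b: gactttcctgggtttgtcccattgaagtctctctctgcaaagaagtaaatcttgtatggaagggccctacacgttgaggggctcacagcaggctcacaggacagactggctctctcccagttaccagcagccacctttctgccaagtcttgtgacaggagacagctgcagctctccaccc
Sdhb held 1 NRF1 core that begins 54 bases before the start, and Sdhd held 1 ETS core that begins 46 bases before it. Cox6a1 held an NRF1 core on both strands, in an overlapping palindrome that begins 162 bases before the start, and an ETS core 16 bases before it. The Cox8b stretch held no match, and in the windows of 300 bases described next this was so too for the broadly used Cox5a, Cox5b, Cox7a2, Cox7b and Cox7c, so that Cox6a1 and Cox8b do not stand for broad and muscle forms at large. Over these windows in the table (250 before and 50 after the start, both strands, overlapping matches counted once), an NRF1 core stood in 10 of the 66 nuclear members with an entry (15.2%) and in 3.05% of all 27025 genes. The ETS core stood in 17 of 66 members (25.8%) against 9.93% of all genes, and the core of YY1 (AAGATGGCG), a further factor, in 7 of 66 (10.6%) against 1.64%. Sdhb also held an ETS core in its window of 300 bases, outside the printed stretch. Member windows were richer in G and C than all windows (median 57.3% against 52.7%), as the cores are, and the part of this in the shares was not tested. These matches are descriptions of letters and not of binding.

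In every class other than muscle fibre-like, the transcripts of the mitochondrial genome outnumbered those of the nuclear members. Nuclear members took 1.83%, 1.70% and 1.87% of UMIs in macrophage/monocyte-like cells, and the 13 mitochondrial genes 3.18%, 3.62% and 3.18%. In FAP-like cells the nuclear share was 1.56%, 1.39% and 1.53% and the mitochondrial share 2.83%, 2.73% and 2.65%. Old PBS was thus the lowest library for nuclear members in both classes, and the highest for mitochondrial genes in macrophage/monocyte-like cells only. Capture differs between transcripts, so the ratio of both shares is read across classes and libraries and not as a ratio of molecules.

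Myocyte-like cells, the differentiating muscle cells of the preparation, carried more of either set. Their nuclear share was 3.75%, 3.62% and 3.61% and their mitochondrial share 5.71%, 6.10% and 5.20%. All libraries of this class lay above all libraries of every other class that had 100 cells or more in each library (7 such classes, called the larger ones here), for both shares. At a finer clustering the class parted into a MuSC/myoblast-like group (74 to 135 cells per library) and a myocyte-like group (141 to 327 cells), which differed in opposite directions for the nuclear and the mitochondrial genome. Nuclear members stood at 29079, 26087 and 27810.0 CPM in the first and at 39334, 39226 and 37763 CPM in the second, whereas mitochondrial genes stood at 71578, 68695 and 61237.5 CPM in the first and at 53900.5, 58679.5 and 50088 CPM in the second. The ratio of mitochondrial to nuclear UMIs was therefore 2.46, 2.63 and 2.20 in MuSC/myoblast-like and 1.37, 1.496 and 1.33 in myocyte-like cells, with no overlap.

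Muscle fibre-like barcodes showed the reverse balance. Nuclear members made up 9.14%, 7.34% and 9.11% of their UMIs, the highest share of any class, and mitochondrial genes 0.479%, 0.518% and 0.455%, the lowest. This gave 0.0525, 0.0705 and 0.0499 mitochondrial UMIs per nuclear UMI, against 1.24 to 2.49 over all libraries of the 7 larger classes. With no filter on the mitochondrial share of a barcode, the fibre-like share was 0.479%, 0.706% and 0.516%, and the ratio 0.0525, 0.0964 and 0.0567. What these barcodes hold (whole cells, fragments or free RNA) was not tested, and their UMI number was low. At the other end, the ratio was highest in B-like cells (3.44 to 4.15) and high in glial-like cells (3.18 to 3.34), classes of 8 to 67 cells per library. Pericyte/smooth muscle-like cells (78 to 104 per library) had 2.32, 3.18 and 2.78, so that old PBS reached the glial-like range. With no mitochondrial filter they had 2.78, 4.56 and 3.29, and glial-like cells 4.24, 4.01 and 3.68.

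**Figure D1:**
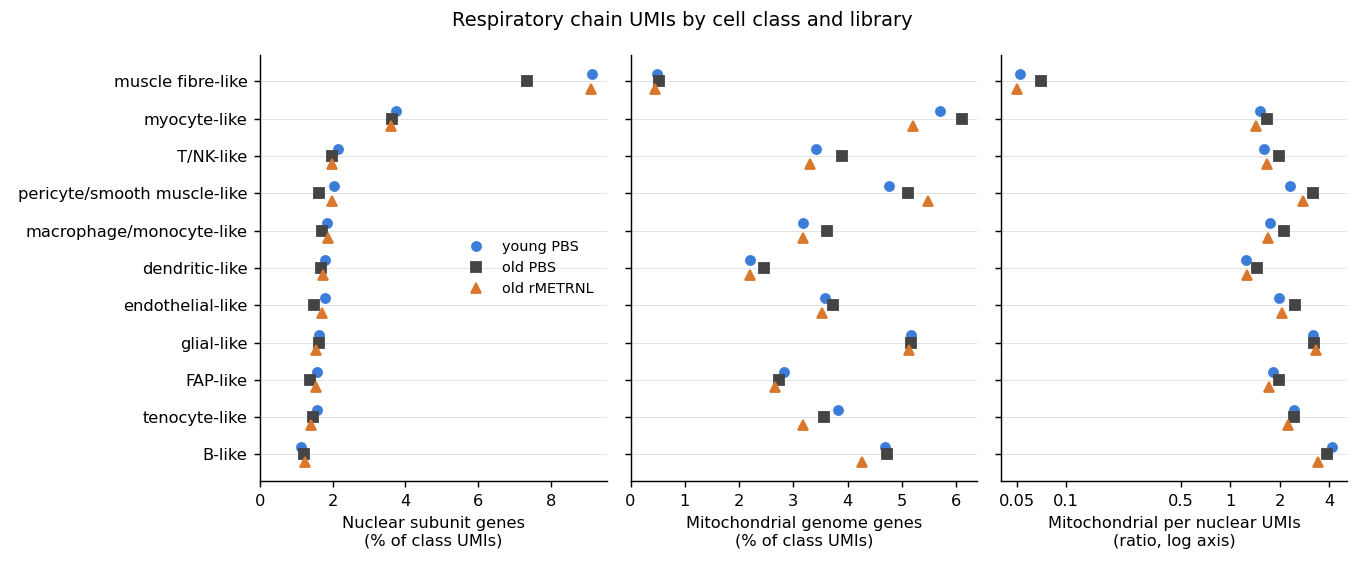
Share of UMIs in the 80 nuclear subunit genes (left), in the 13 mitochondrial genome genes (middle) and the ratio of both (right, log axis), by cell class (rows) and library (symbols), from UMIs summed over the cells of a class. Muscle fibre-like barcodes stand alone with a nuclear share of 7.34% to 9.14% and a ratio of 0.0499 to 0.0705, and myocyte-like cells follow for the nuclear share.

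Among the other classes the ratio put dendritic-like cells lowest, at 1.24, 1.46 and 1.26, and tenocyte-like cells high, at 2.45, 2.43 and 2.25. Macrophage/monocyte-like cells had 1.73, 2.13 and 1.70, FAP-like cells 1.82, 1.97 and 1.73, T/NK-like cells 1.601, 1.98 and 1.67, and endothelial-like cells 1.99, 2.49 and 2.07. The ranges of macrophage/monocyte-like, FAP-like and T/NK-like cells overlapped, so their order is not set by these libraries. Old PBS was the highest of the 3 libraries in 6 of the 7 larger classes, with tenocyte-like cells (2.43 against 2.45 in young PBS) as the exception. With no filter on the mitochondrial share of a barcode, tenocyte-like cells had 2.54, 2.58 and 2.45, so old PBS was then highest there too. Counting intervals were narrow here (1.73 to 1.74 in macrophage/monocyte-like cells of young PBS), so that counting error is not the limit of these values.

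The nuclear members were lower in old PBS than in young PBS in the 2 largest classes. The size was small for each gene and the direction was shared by nearly all. In FAP-like cells 73 of the 78 nuclear members had a ratio below 1 and the median log2 ratio was -0.18 (order-statistic interval over members -0.20 to -0.16), where the median of all 14454 genes was -0.02. Among macrophage/monocyte-like cells 67 of 78 lay below 1 with a median of -0.12 (-0.15 to -0.10), where all 14413 genes had a median of -0.00. Summed over the members, the ratio was 0.891 (0.887 to 0.894) in FAP-like and 0.927 (0.925 to 0.929) in macrophage/monocyte-like cells.

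Few members moved far. With a ratio of at most 0.8, or the inverse of that, as the limit, 2 of 78 nuclear members were higher in FAP-like cells of old PBS against 17.6% of all genes, and 3 of 78 were lower against 17.7%. Of 78 members in macrophage/monocyte-like cells 1 was higher and 3 were lower, where 16.1% of all genes passed in each direction. The members' counts stand below these shares, so the fold limit picked out few nuclear members and their difference lay in a small shift of nearly all of them. Genes with many UMIs, such as these, scatter less from counting error than genes at large.

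The treatment comparison gave the opposite sign. In FAP-like cells of old rMETRNL 73 of 78 nuclear members had a ratio above 1 over old PBS, with a median log2 ratio of 0.17 (0.14 to 0.19) beside 0.00 for all genes, and a summed ratio of 1.11 (1.10 to 1.11). For macrophage/monocyte-like cells 76 of 78 lay above 1, with a median of 0.15 (0.14 to 0.17) beside 0.05 for all genes, and a summed ratio of 1.10 (1.10 to 1.11). Past the fold limit were 2 higher (12.8% of all genes) and 3 lower (14.4%) in FAP-like cells, and 1 higher (16.3%) and 1 lower (11%) in macrophage/monocyte-like cells. Set against young PBS, old rMETRNL had a median of -0.02 (-0.03 to 0.01) in FAP-like and 0.03 (0.00 to 0.04) in macrophage/monocyte-like cells, so the nuclear members of young PBS and old rMETRNL lay close together and old PBS apart.

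**Figure D2:**
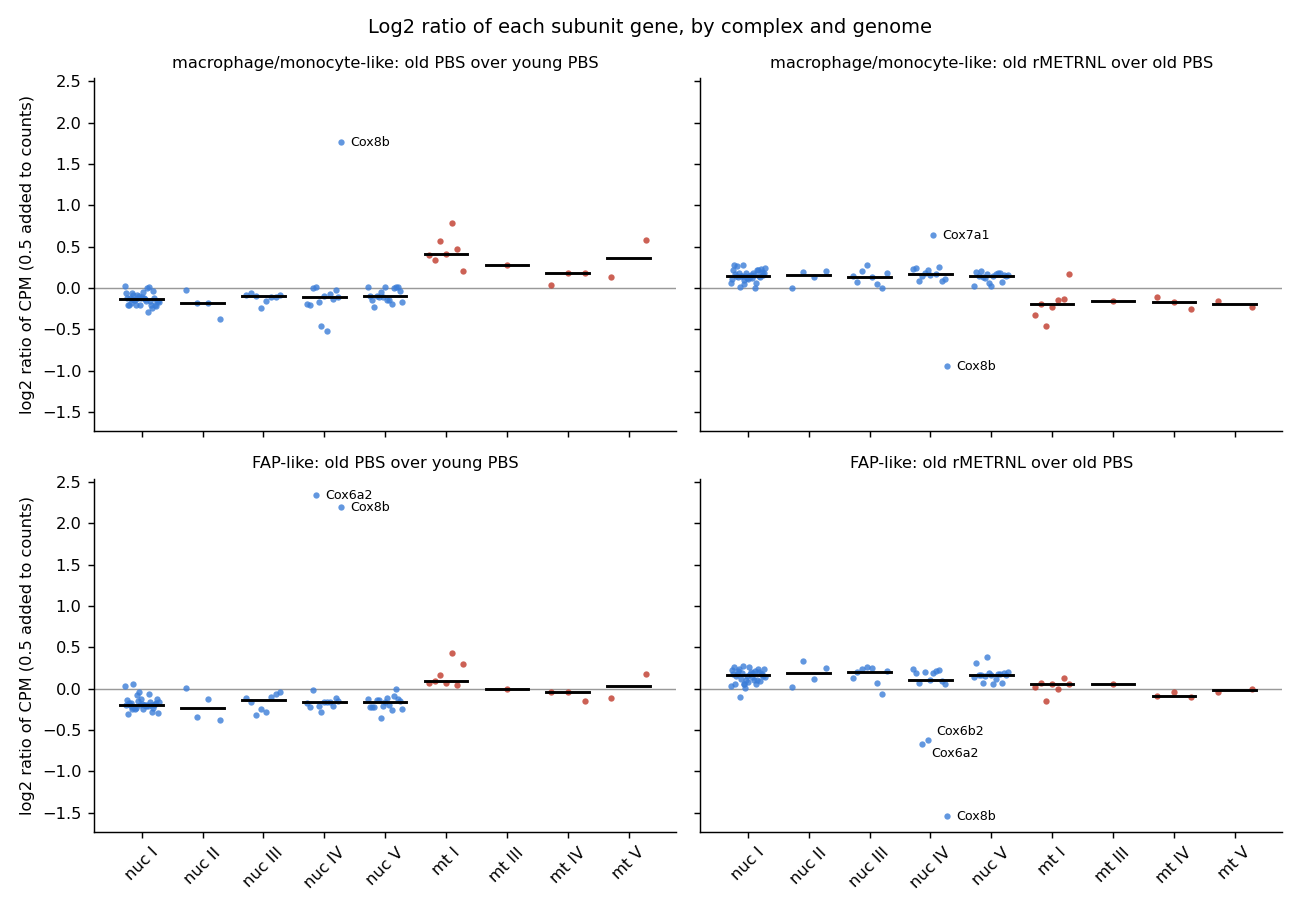
Log2 ratio of CPM of each member with at least 50 UMIs in the class (points, nuclear (nuc) in blue and mitochondrial genome (mt) in red, offset sideways for view) by complex (assigned by symbol), for the age comparison (left) and the treatment comparison (right) in macrophage/monocyte-like (top) and FAP-like cells (bottom), with black bars at the medians. Nuclear members of all 5 complexes sit just below 0 on the left and just above it on the right, and the labelled points far away are muscle or minor forms of complex IV subunits.

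The shift was spread over the complexes. Complex I nuclear members, taken by symbol with Ndufa4 among them and summed, stood at 5121, 4531 and 4989 CPM in FAP-like cells and at 5723, 5236 and 5802 CPM in macrophage/monocyte-like cells. Old PBS was lowest in both, and of the 36 genes 34 had an age ratio below 1 in FAP-like cells and 33 in macrophage/monocyte-like cells. Ndufs7, one of the iron-sulfur subunits on the electron path, had 84.7, 74.3 and 84.1 CPM in FAP-like cells and 105, 90.8 and 107 CPM in macrophage/monocyte-like cells. Ndufv2, which carries an iron-sulfur centre near the NADH site, had 96.1, 78.5 and 92.9 CPM and 105, 94.1 and 107 CPM. Both genes had old PBS as the lowest library in each class by more than counting error. Ndufs1, the largest core subunit, had no age difference beyond counting error, with 27.9, 26.8 and 31.1 CPM in FAP-like and 30.6, 30.8 and 30.9 CPM in macrophage/monocyte-like cells, and its age ratio was 0.959 (0.879 to 1.05) and 1.01 (0.956 to 1.06). Its treatment ratio was 1.16 (1.07 to 1.26) and 1.003 (0.955 to 1.05).

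Further core subunits of complex I were lower in old PBS. The age ratio in FAP-like cells was 0.869 for Ndufs3, 0.888 for Ndufs8 and 0.918 for Ndufv1 (the NADH-binding subunit). It was 0.866, 0.857 and 0.898 for the same genes in macrophage/monocyte-like cells. Each interval left out 1. Ndufa12, an accessory subunit, was among the 3 highest nuclear members of the treatment comparison in macrophage/monocyte-like cells, at 124, 108 and 131 CPM, a treatment ratio of 1.22 (1.19 to 1.248).

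Complex II, which oxidises succinate and belongs to the citric acid cycle too, held 2 of the 3 nuclear members with the lowest age ratio in FAP-like cells. Sdhd had 72.1, 55.5 and 66.0 CPM in FAP-like cells and 98.7, 76.1 and 87.4 CPM in macrophage/monocyte-like cells. The age ratio was 0.770 (0.726 to 0.815) and 0.771 (0.748 to 0.795), and old rMETRNL lay between young PBS and old PBS in both classes. Sdhb, whose promoter is printed above with Sdhd, had 79.4, 62.8 and 79.1 CPM in FAP-like cells, with old PBS over young PBS at 0.791 (0.749 to 0.835) and old rMETRNL over old PBS at 1.26 (1.19 to 1.33). In macrophage/monocyte-like cells it had 157, 139 and 158 CPM, old PBS over young PBS being 0.880 (0.860 to 0.901). Sdhc, the other anchor, had age ratios of 0.919 and 0.881. Sdha, the flavoprotein with the catalytic site, stood apart from its partners with 68.5, 68.8 and 69.9 CPM in FAP-like and 94.1, 92.9 and 92.7 CPM in macrophage/monocyte-like cells. Its age ratios of 1.004 (0.951 to 1.06) and 0.987 (0.959 to 1.02) left no difference beyond counting error, and those intervals lie above the values of Sdhb, Sdhc and Sdhd in macrophage/monocyte-like cells.

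In complex III the 8 nuclear members all had age ratios below 1 in both classes. Uqcrc1, a core subunit, had 95.2, 80.2 and 95.9 CPM in FAP-like cells and 127, 107 and 129 CPM in macrophage/monocyte-like cells, so that young PBS and old rMETRNL were level and old PBS lower. The age ratio was 0.843 (0.803 to 0.885) and 0.842 (0.821 to 0.864). Uqcrc2, the second core subunit, had 0.822 and 0.897, and Uqcrfs1, the Rieske iron-sulfur protein, 0.932 and 0.928.

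In complex IV the 2 nuclear subunits Cox5a and Cox5b followed the same pattern. Cox5a had 178, 157 and 186 CPM in FAP-like cells and 415, 362 and 425 CPM in macrophage/monocyte-like cells. Cox5b had 282, 242 and 276 CPM and 406, 352 and 416 CPM. The age ratios were 0.884 and 0.855 in FAP-like cells and 0.873 and 0.868 in macrophage/monocyte-like cells, and treatment ratios were 1.14 to 1.18.

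In complex V, the ATP synthase, all 17 nuclear members had treatment ratios above 1 in both classes. The catalytic beta subunit Atp5b had 418, 357 and 443 CPM in FAP-like cells and 408, 381 and 435 CPM in macrophage/monocyte-like cells. Its treatment ratio was 1.24 (1.21 to 1.27) in FAP-like cells, the third highest of the nuclear members there, and 1.14 (1.13 to 1.16) in macrophage/monocyte-like cells. The alpha subunit Atp5a1 had 286, 262 and 289.6 CPM in FAP-like cells but 314, 318 and 324 CPM in macrophage/monocyte-like cells, where its age ratio was 1.01 (0.996 to 1.03). The gamma subunit Atp5c1 had 268, 230.2 and 258 CPM and 307, 278 and 307 CPM, lowest in old PBS in both.

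The c subunit of the rotor is encoded by 3 genes whose mature protein is the same, and these did not move alike in FAP-like cells. Atp5g1 had 265, 207 and 269 CPM, with old PBS over young PBS at 0.781 (0.759 to 0.805) and old rMETRNL over old PBS at 1.30 (1.26 to 1.34), the highest of the nuclear members. Atp5g2 had 380.1, 328 and 375 CPM, old PBS over young PBS being 0.863 (0.842 to 0.884), and Atp5g3 169, 151 and 169 CPM with 0.895 (0.863 to 0.927). Atp5g1 therefore made up 32.5%, 30.2% and 33.1% of the 3 genes' UMIs. The Atp5g1 share was 27.3%, 27.6% and 29.4% in macrophage/monocyte-like cells, and in muscle fibre-like barcodes 69.1%, 62.0% and 65.4%.

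The mitochondrial genome genes did not follow the nuclear members. In macrophage/monocyte-like cells all 13 had age ratios above 1 and a median log2 ratio of 0.34 (0.18 to 0.56), beside -0.00 for all genes. Each counting interval lay above 1, but intervals of genes with so many UMIs are narrow and leave out 1 for small differences too. In the treatment comparison 12 of 13 lay below 1, with a median of -0.17 (-0.26 to -0.13) beside 0.05 for all genes. Summed by complex, the genes of complex I moved furthest. These 7 genes stood at 5124, 6882 and 5733 CPM, with old PBS over young PBS at 1.34 (1.34 to 1.35) and old rMETRNL over old PBS at 0.833 (0.830 to 0.836). The 3 complex IV genes stood at 19009, 20728 and 18312 CPM, an age ratio of 1.09 (1.09 to 1.09).

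Single genes differed widely, within complex I too. mt-Nd4l had 162, 279 and 253 CPM in macrophage/monocyte-like cells and an age ratio of 1.72 (1.69 to 1.75). mt-Nd3 had 558, 824 and 598 CPM, with old PBS over young PBS at 1.48 (1.46 to 1.49) and old rMETRNL over old PBS at 0.726 (0.719 to 0.733), so that young PBS and old rMETRNL were close for mt-Nd3 and apart for mt-Nd4l. mt-Atp8 had 88.6, 133 and 113 CPM, an age ratio of 1.499 (1.46 to 1.54). These are short genes, and mt-Nd4l and mt-Atp8 lie on transcripts shared with mt-Nd4 and mt-Atp6, so the assignment of UMIs between such neighbours is uncertain. The long partners had smaller ratios, with 1410, 1879 and 1605 CPM for mt-Nd4 (1.33) and 5685, 6218 and 5585 CPM for mt-Atp6 (1.09).

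Among the remaining genes the age ratio was 1.31 for mt-Nd1 (1576, 2070 and 1649 CPM), 1.27 for mt-Nd2 (1100, 1395 and 1223 CPM) and 1.39 for mt-Nd5 (291, 404 and 368 CPM). mt-Cytb, the subunit of complex III, had 1886, 2282 and 2040 CPM, a ratio of 1.21 (1.20 to 1.22). mt-Co1, the catalytic subunit of complex IV, was nearly level at 7237, 7413 and 6863 CPM (age ratio 1.02, 1.02 to 1.03), while mt-Co2 (5427, 6142 and 5447 CPM) and mt-Co3 (6345, 7173 and 6001 CPM) both had 1.13. mt-Nd6, which is read from the other strand than the rest, was the only gene of the 13 with a treatment ratio above 1, with 27.4, 31.6 and 35.6 CPM and a ratio of 1.13 (1.08 to 1.18). Its age ratio of 1.15 (1.10 to 1.21) was the smallest of the complex I genes.

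In FAP-like cells the mitochondrial genes gave no shared direction. The age ratio lay above 1 in 8 of 13 and the treatment ratio in 7 of 13, with medians of 0.06 (-0.04 to 0.18) and 0.00 (-0.09 to 0.06), beside -0.02 and 0.00 for all genes. The 7 complex I genes were all above 1 with age (summed 4261, 4579 and 4662 CPM, ratio 1.07), and the 3 complex IV genes all below (15884, 15061 and 14246 CPM, ratio 0.948). mt-Co3 had 5619, 5069 and 4741 CPM in FAP-like cells and an age ratio of 0.902 (0.897 to 0.908), where macrophage/monocyte-like cells had 1.13. mt-Co1 (6076, 5926 and 5556 CPM) and mt-Co3 were highest in young PBS and lowest in old rMETRNL, and mt-Nd4 (1358, 1419 and 1471 CPM) stood in the reverse order. mt-Nd4l had 205, 276 and 276 CPM, again the largest age ratio of the 13, at 1.35 (1.31 to 1.39).

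**Figure D3:**
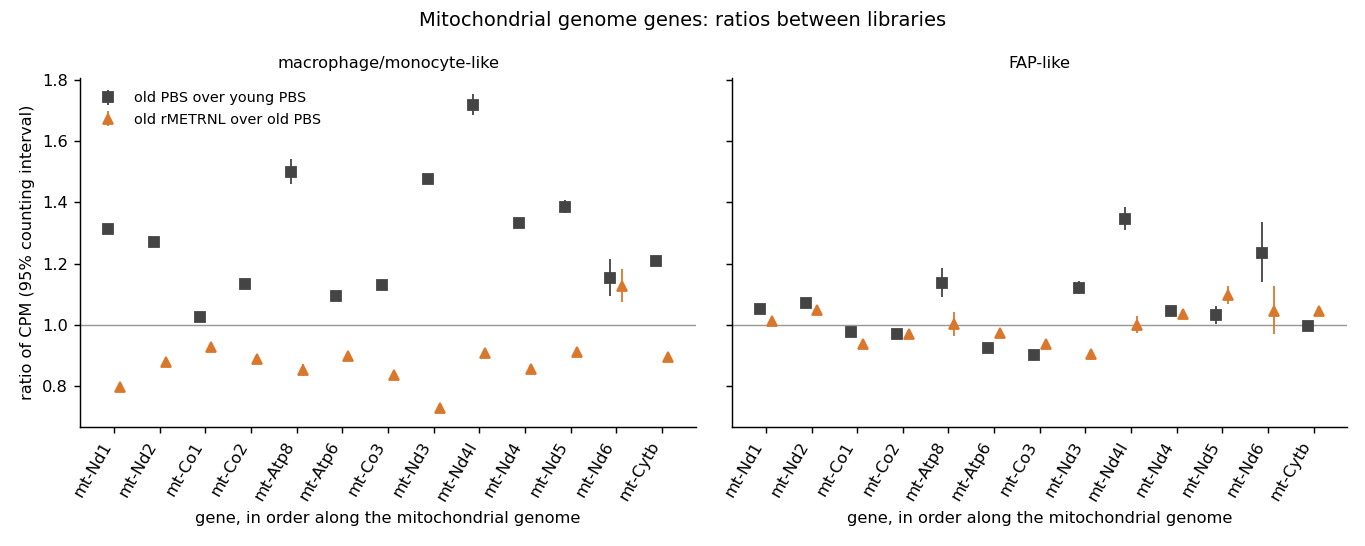
Ratio of CPM with its 95% counting interval for the 13 mitochondrial genome genes in their order along the genome, for the age (squares) and treatment comparison (triangles), in macrophage/monocyte-like (left) and FAP-like cells (right). On the left all age ratios lie above 1 and all treatment ratios but that of mt-Nd6 (1.13) below it, and on the right both lie on either side of 1.

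The same comparison in the smaller classes gave nuclear members that were lower in old PBS, with a size that varied. The median age log2 ratio was -0.27 in endothelial-like cells (75 of 76 below 1), -0.10 in dendritic-like (63 of 76), -0.13 in T/NK-like (57 of 74), -0.12 in tenocyte-like (56 of 75) and -0.06 in myocyte-like cells (60 of 78). All genes had medians of -0.04, -0.00, 0.02, 0.02 and 0.02 in these classes, in the same order. In the treatment comparison the median was 0.21 in endothelial-like and 0.06 in dendritic-like cells, but 0.02 in T/NK-like, -0.00 in myocyte-like and -0.05 in tenocyte-like cells, where all genes had 0.04, 0.02, -0.00, -0.01 and -0.03. The median with age was thus below 0 and below that of all genes in all 7 larger classes, and the treatment median lay within 0.02 of that of all genes in 3 of them. In endothelial-like cells the median UMI number of the main cluster was 10489, 3307 and 5496, so depth differed together with the level. The markers of other cell types in this class did so as well, with 28.2, 305 and 66.4 CPM for muscle fibre, 23.1, 176 and 39.9 CPM for erythroid and 527, 1092 and 982 CPM for macrophage/monocyte markers. The part of depth and of such RNA was not tested.

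For the mitochondrial genes, the treatment ratio of the summed level was below 1 in all 7 larger classes, from 0.849 in T/NK-like cells to 0.971 in FAP-like cells. The age ratio was above 1 in 5 of them, from 1.04 in endothelial-like to 1.14 in T/NK-like cells and in macrophage/monocyte-like cells, and below 1 in FAP-like (0.966) and tenocyte-like cells (0.931). In myocyte-like cells mt-Co1 had 9921, 11182 and 9056 CPM, a treatment ratio of 0.810 (0.803 to 0.817).

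Macrophage/monocyte-like cells fell into 7 clusters whose respiratory chain levels differed more than the libraries did. A cluster led by the cell cycle genes Nusap1, Top2a and Mki67 had the highest nuclear level, at 21252, 20457 and 21464 CPM, and a cluster led by Spp1 and Gpnmb followed with 19960.2, 18732 and 20069 CPM. The lowest was a cluster led by the cytokine genes Il10, Cxcl2 and Tnf, with 12872, 11430.5 and 13078 CPM. It had the highest ratio of mitochondrial to nuclear UMIs, at 2.47, 3.685 and 2.61, ahead of a cluster led by F13a1 and Cd163 at 2.29, 3.29 and 2.26. A cluster led by Ly6c2 had the lowest, at 1.38, 1.57 and 1.41. These clusters were not defined with the members.

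Within clusters the library differences were the following, with no value for all genes computed beside them. The age ratio of the summed nuclear members was below 1 in 6 of 7 macrophage/monocyte-like clusters, from 0.815 (0.808 to 0.822) in the F13a1 cluster to 0.963 (0.956 to 0.969) in the cell cycle cluster. The exception was the cluster led by Slc7a11 and F10, at 1.02 (1.02 to 1.03), with 50 of 78 members above 1. The treatment ratio was above 1 in 7 of 7, from 1.05 to 1.28, and was highest in the F13a1 cluster. For the mitochondrial genes the age ratio was above 1 in 7 of 7 (1.05 to 1.325, highest in the Il10 cluster) and the treatment ratio below 1 in 7 of 7 (0.811 to 0.950). The differences of the class were thus present inside its clusters, with the 1 exception named. The makeup of the class differed too. The Slc7a11 cluster held 1072 of 6316, 1989 of 6032 and 1021 of 6872 cells, and the Il10 cluster, with the lowest nuclear level and the highest ratio, held 365, 677 and 384, so the class values mix levels with makeup.

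FAP-like cells formed 2 clusters that differed more. In the larger, led by Sfrp2, Sfrp1 and Cxcl14, the nuclear members stood at 15883, 14090.3 and 15675 CPM, an age ratio of 0.887 (0.884 to 0.891) with 74 of 78 members below 1. In the smaller, led by Pi16 and Sema3c, a cluster with at least 248 cells in each library, they stood at 12804.5, 12719 and 13617 CPM, an age ratio of 0.993 (0.983 to 1.004) with 38 of 76 members above 1. The lower level in old PBS was thus seen in the Sfrp2 cluster, while in the Pi16 cluster old PBS was lowest by less than counting error. Median UMIs per cell were 26963.5, 24295 and 25923 in the Sfrp2 cluster but 19812.5, 12433.5 and 17560 in the Pi16 cluster, and the part of depth was not tested. No value for all genes was computed within these clusters, so the counts of members stand without a background. The treatment ratio was 1.11 in the first and 1.07 (1.06 to 1.08) in the second. The Pi16 cluster made up more of the FAP-like cells in old PBS, so its class value too mixes the levels with the makeup.

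**Figure D4:**
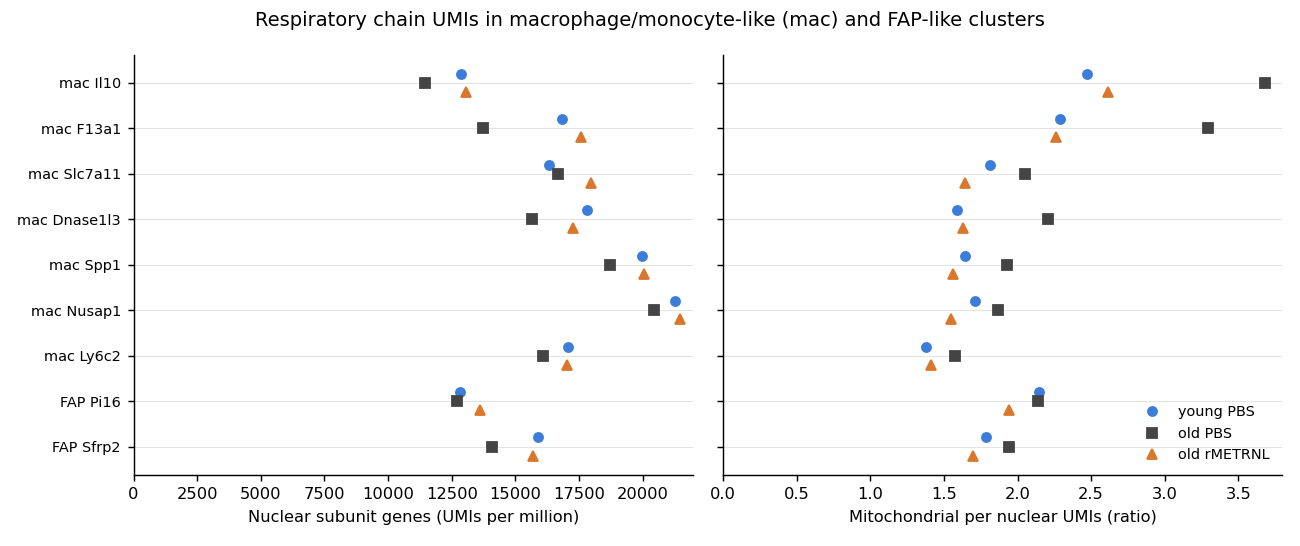
Summed nuclear members in CPM (left) and the ratio of mitochondrial to nuclear UMIs (right) in each macrophage/monocyte-like and FAP-like cluster (rows, named by their first leading gene), by library (symbols). Old PBS has the highest ratio in all 7 macrophage/monocyte-like clusters and, among FAP-like clusters, only in the one led by Sfrp2.

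The level of the nuclear members differed with the number of UMIs per cell. Over 5 classes of UMI number it was highest in the deepest cells in each library, at 22306, 20925 and 21370 CPM in macrophage/monocyte-like and at 17378, 16670 and 17190.0 CPM in FAP-like cells. The class of 500 to 5000 UMIs had 13731, 13403 and 14752 CPM in macrophage/monocyte-like cells, and in FAP-like cells it had 14538, 15407 and 15648 CPM, above the next class (12364, 12074 and 12509 CPM). Within these classes, macrophage/monocyte-like cells of old PBS had the lowest nuclear level in each, and FAP-like cells of old PBS in all but the class of 500 to 5000 UMIs, where young PBS (28 cells) was lowest. The ratio of mitochondrial to nuclear UMIs was highest in old PBS in the 4 deeper classes of macrophage/monocyte-like cells, but not in that of 500 to 5000 UMIs (2.96, 2.86 and 2.56). In FAP-like cells young PBS had the highest ratio in the 2 shallowest classes (2.87, 2.16 and 1.54, then 3.28, 3.08 and 2.95) and old PBS in the other 3. The mitochondrial genes of macrophage/monocyte-like cells stood at 40636, 38386 and 37809 CPM in the shallowest class and at 35672, 35502 and 32463 CPM in the deepest, so young PBS was not below old PBS at either end. FAP-like cells were also parted by whether they held at least 2 UMIs over 10 cell cycle genes, a limit that deeper cells reach more readily, so that the level on either side of it cannot be told apart from depth. The nuclear members stood at 17339, 15965 and 16961 CPM above the limit and at 14453, 12934.5 and 14085 CPM below it, old PBS being lowest on both sides. With the cells above the limit left out, the median age log2 ratio in FAP-like cells was still negative and the median treatment log2 ratio was 0.12. The 10 cell cycle genes had a median age log2 ratio of -0.46 and a median treatment log2 ratio of 0.79 in FAP-like cells, beyond those of the nuclear members.

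Other genes of the mitochondrion were compared by the same measure. Among 78 genes of the mitochondrial ribosome, which makes the 13 mitochondrial proteins, the median age log2 ratio was -0.34 in FAP-like cells (78 of 78 below 1, 46 past the fold limit where 17.7% of all genes were) and -0.20 in macrophage/monocyte-like cells (76 of 78 below 1, 11 past the limit beside 16.1%). Treatment gave 0.28 and 0.22, with 23 past the limit upward (12.8% of all genes) and 6 (16.3%). The 7 subunits and carriers that the rule left out had -0.34 and -0.14 with age and 0.31 and 0.18 with treatment. Assembly factors of the complexes (40 genes) had -0.18 and -0.20 with age and 0.15 and 0.20 with treatment. The citric acid cycle and pyruvate dehydrogenase (16 genes) had -0.11 and -0.06 with age and 0.18 and 0.12 with treatment. Factors of mitochondrial biogenesis and of mitochondrial DNA expression, such as Tfam and Nrf1, had medians near 0 with age (-0.04 over 16 genes and 0.00 over 15), and 0.00 and 0.11 with treatment. The cytosolic ribosome had -0.20 over 88 genes in FAP-like and -0.09 over 89 genes in macrophage/monocyte-like cells with age, and 0.13 and 0.06 with treatment, so that a small shift in the same direction was present in other sets of genes.

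The muscle forms of complex IV subunits were described against their broad partners by their share of UMIs, which is read across classes and libraries and not as a ratio of molecules, since capture differs between genes. In muscle fibre-like barcodes Cox6a2 took 98.6%, 98.0% and 99.0% of the pair's UMIs, and Cox8b took 91.5%, 88.7% and 92.1% of the Cox8 genes. Cox7a1 had a lower share of its pair with Cox7a2 there, at 45.4%, 49.5% and 49.8%. In myocyte-like cells the shares were far smaller, since Cox6a2 had 5.98%, 4.83% and 2.85%, Cox7a1 3.48%, 3.53% and 3.46% and Cox8b 0.650%, 0.903% and 0.531%. The Cox6a2 share of these cells was lowest in old rMETRNL (2.45% to 3.31% by counting), as were their summed fibre markers (3577, 2732 and 2194 CPM) and myocyte markers (2923, 2016 and 1410.3 CPM). The part of the stage of the cells in this share was not tested.

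Outside muscle these forms were rare, and some of them had the same order of libraries as the fibre markers. In FAP-like cells Cox8b had 0.677, 3.14 and 1.07 CPM (32, 102 and 50 UMIs), with old PBS over young PBS at 4.64 (3.09 to 7.13) and old rMETRNL over old PBS at 0.342 (0.239 to 0.484). Cox6a2 had 0.296, 1.54 and 0.966 CPM (14, 50 and 45 UMIs), an age ratio of 5.19 (2.83 to 10.2). When FAP-like cells were instead chosen by a gate on marker UMIs, the ratio of Cox6a2 turned to 0.772 and that of Cox8b fell to 2.20, and with cells holding a fibre marker UMI left out both genes fell under the minimum of 50 UMIs. Leaving out such cells kept 1031 of 1712, 308 of 1467 and 884 of 1837 FAP-like cells and 3094 of 6316, 1018 of 6032 and 2722 of 6872 macrophage/monocyte-like cells, so the loss was largest in old PBS and lowers the UMI totals by itself. These were the 2 nuclear members past the fold limit upward with age, and the fibre markers in the same cells (22.7, 135 and 49.98 CPM) had the same order of libraries. Per 1000 fibre marker UMIs, Cox6a2 had 13.05, 11.4 and 19.3 UMIs in FAP-like cells against 19.9, 15.1 and 20.6 in fibre-like barcodes. Cox8b had 29.8, 23.2 and 21.5 against 12.9, 12.6 and 14.2, above the fibre-like value by more than counting error in each library. The part of fibre RNA in these levels was not tested. Cox7a1 did not have the order of the fibre markers, with 3.40, 3.05 and 3.48 CPM (161, 99 and 162 UMIs), that is, 150.0, 22.5 and 69.6 per 1000 against 5.40 to 6.73 in fibre-like barcodes.

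In macrophage/monocyte-like cells the forms did not keep the ratio found in fibres. Cox6a2 stood at 10.1, 10.2 and 11.2 CPM, that is, 127, 57.1 and 112 UMIs per 1000 fibre marker UMIs, and Cox7a1 at 11.2, 7.83 and 12.2 CPM, that is, 141, 43.9 and 122 per 1000 against 5.62, 5.40 and 6.73 in fibre-like barcodes. Both lay above the ratio of fibre-like barcodes, and the part of fibre RNA in these levels was not tested. Cox7a1 had the lowest age ratio (0.697, 0.635 to 0.765) and the highest treatment ratio (1.56, 1.43 to 1.71) of the nuclear members in these cells. Cox8b had 0.544, 1.86 and 0.965 CPM (54, 182 and 108 UMIs), at 6.85, 10.4 and 9.63 per 1000 fibre marker UMIs, no more than in fibre-like barcodes. It was the 1 nuclear member past the fold limit upward with age, with a ratio of 3.41 (2.51 to 4.71), which became 5.55 with the marker gate and 6.50 without cells holding a fibre marker UMI.

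Tenocyte-like cells differed again. Cox8b had 51, 45 and 68 UMIs there, 2.22%, 3.77% and 3.66% of the Cox8 genes, and 293, 125 and 354 UMIs per 1000 fibre marker UMIs, against 12.6 to 14.2 in fibre-like barcodes, although its level (12.2, 21.4 and 17.9 CPM) had the same order of libraries as the fibre markers (41.6, 171 and 50.5 CPM). Cox6b2, a minor form beside Cox6b1, took 2.17%, 2.06% and 1.17% of its pair in FAP-like cells, with 7.97, 6.55 and 4.25 CPM and a treatment ratio of 0.649 (0.532 to 0.791). In macrophage/monocyte-like cells it had 4.50, 3.27 and 3.80 CPM, an age ratio of 0.727 (0.627 to 0.841). Cox7b2 and Cox8c were the 2 members under 50 UMIs.

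The broad partners followed the other nuclear members. Cox6b1 had 359.6, 311 and 358 CPM in FAP-like and 526, 469 and 531 CPM in macrophage/monocyte-like cells. Cox7a2 had 242, 217 and 253 CPM and 330.5, 315 and 355 CPM, Cox7b 267, 231 and 271 CPM and 279.5, 254 and 303 CPM, and Cox8a 496, 448 and 467 CPM and 667, 616 and 665 CPM. Old PBS was the lowest library for each. Cox6a1 was the exception, with 202, 200.02 and 211 CPM and 243, 243 and 257 CPM and age ratios of 0.991 (0.960 to 1.02) and 1.001 (0.983 to 1.02).

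**Figure D5:**
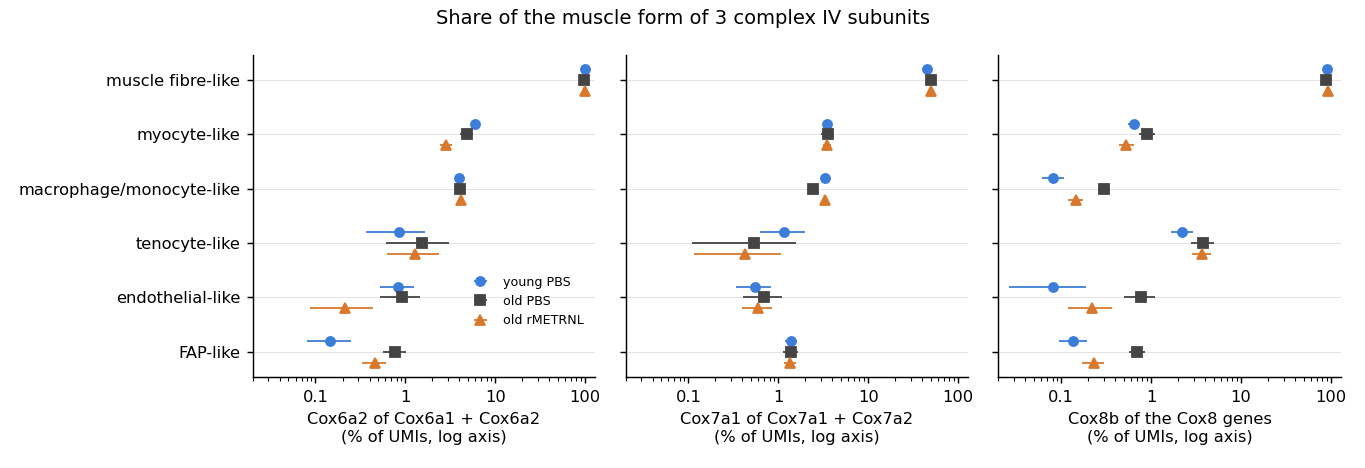
Share of the muscle form among the UMIs of its subunit genes (log axis, with 95% counting interval) for Cox6a2, Cox7a1 and Cox8b by cell class (rows) and library (symbols), to be read across rows since capture differs between genes. Fibre-like barcodes lie at 88.7% to 99.0% for Cox6a2 and Cox8b and at 45.4% to 49.8% for Cox7a1, and all other classes shown lie below 6%.

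In muscle fibre-like barcodes themselves nuclear members were lower in old PBS (summed age ratio 0.803, 0.788 to 0.818, 70 of 77 below 1) and higher in old rMETRNL (1.24, 1.23 to 1.26, 75 of 77 above 1). Cox6a2 had 3594, 2512 and 3676 CPM and Atp5b 1851, 1321 and 1718 CPM. The young PBS values rest on 34 barcodes, so these are descriptions of few barcodes of low UMI number. No value for all genes is set beside these counts. The fibre markers of these barcodes were lowest in old PBS too, at 180664, 165811 and 178697 CPM. The Cox8a share of the Cox8 genes was highest there, at 8.45%, 11.3% and 7.86%. The part of RNA from other cells in these levels was not tested.

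The filter on cells bears on the mitochondrial genes. Barcodes with 10% or more of mitochondrial UMIs numbered 577, 767 and 774 and were left out. With no such filter they made up 17.2%, 24.7% and 12.1% of myocyte-like cells but 2.34%, 2.86% and 2.31% of macrophage/monocyte-like cells. The ratio of mitochondrial to nuclear UMIs was then 1.81, 2.24 and 1.75 in macrophage/monocyte-like, 1.85, 2.06 and 1.77 in FAP-like and 1.86, 2.19 and 1.66 in myocyte-like cells, with old PBS highest in each as before. Over all barcodes with no filter of any kind the mitochondrial genes took 3.55%, 3.79% and 3.41% of UMIs and the nuclear members 1.92%, 1.75% and 1.90%.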

How the data were processed

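The submitters' processing notes name Cell Ranger 5.0.0 and 3.1.0 with mm10, and the deposited matrices hold counts (UMIs per gene and cell barcode) with no normalization by the authors. Here barcodes with under 500 genes, with 10% or more mitochondrial UMIs or with a doublet score among the highest (expected rate 0.8% per 1000 barcodes, because an automatic limit marked 230, 3 and 0) were left out. Cells were clustered without the members (scanpy 1.11.5, leidenalg 0.10.2, 2000 variable genes, 30 components, resolution 0.8) and classes named from marker lists. UMIs were summed per class and library and given as CPM, with exact 95% intervals (scipy 1.17.1). A median log2 ratio has 0.5 added to each count and covers genes with 50 or more UMIs in the class. Ratios of at most 0.8, or at least the inverse of that, counted as past the fold limit. The step that computes ratios was tested on simulated data.

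Genes named were all mitochondrial genome members, the isoform sets, the 4 Sdh genes, listed core subunits and, for both large classes and both comparisons, the 3 nuclear members with the highest and the 3 with the lowest ratio whose interval left out 1. The members and lists were chosen with earlier results of these data known. The alternatives concerned cell filters, doublets, class definition, minimum UMIs, fold limit, weighting of cells, centring and cycling cells, and leaving out cells with a muscle fibre marker UMI was chosen after seeing the data. The values of some member genes are not reported here.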

Additional observations from a re-analysis of the deposited data

How the results depend on the processing

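Over 16 alternatives the median log2 ratio of the nuclear members kept its direction in 16, at -0.22 to -0.16 (FAP-like, age), 0.12 to 0.18 (FAP-like, treatment), -0.15 to -0.09 (macrophage/monocyte-like, age) and 0.10 to 0.18 (macrophage/monocyte-like, treatment). The change in the ratio of mitochondrial to nuclear UMIs stayed on its side of 1 too, at 1.18 to 1.28 with age and 0.773 to 0.821 with treatment in macrophage/monocyte-like cells, and at 1.07 to 1.11 and 0.853 to 0.901 in FAP-like cells. The mitochondrial genome median of FAP-like cells kept its direction in 15 of 16 with age (-0.01 to 0.11) and in 9 of 16 with treatment (-0.06 to 0.02).

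Medians moved beyond their interval as follows. In FAP-like cells the age median was -0.22 with a marker gate and -0.16 centred on all genes, and the treatment median 0.12 without cycling cells. In macrophage/monocyte-like cells the age median was -0.093 with a mitochondrial share under 5%, -0.15 as a mean of per-cell CPM and -0.089 without cells with a fibre marker UMI, and the treatment median was 0.13, 0.18 and 0.13 in the same order, 0.10 centred and 0.14 without cycling cells.

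Counts past the fold limit were small and moved. For FAP-like cells, higher with age, 2 became 1 with the marker gate, 0 with a minimum of 200 UMIs and 0 without fibre marker cells, and the highest count over the alternatives was 3. Lower with age, 3 became 6 (mitochondrial share under 5%), 8 (marker gate), 5 (no cycling cells), 0 (fold 1.5) and 7 (no fibre marker cells). Higher with treatment, 2 became 1 (minimum of 200 genes, doublets kept, no cycling cells), 4 (per-cell CPM), 0 (fold 1.5) and 7 (no fibre marker cells). Lower with treatment, 3 became 1 with a minimum of 200 UMIs and without fibre marker cells. For macrophage/monocyte-like cells, higher with age, 1 became 2 with the marker gate and without fibre marker cells. Lower with age, 3 became 0 at fold 1.5, and the highest count over the alternatives was 4. Higher with treatment, 1 became 2 (per-cell CPM, no fibre marker cells), and lower, 1 became 2 (marker gate, no fibre marker cells). The age ratio of Cox6a2 in FAP-like cells reversed to 0.772 with the marker gate. The causes were not tested. No paired analysis was possible because each group is 1 library.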
